A study of Mus musculus with 2 samples.

Results

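The genes described here encode cardiac transcription regulators of the GATA, HAND, MEF2 and SRF groups, namely Gata4, Gata5, Gata6, Hand2, Mef2a, Mef2c, Mef2d, Srf, Myocd and Smyd1. They were chosen by symbol, and all 10 of the 10 listed genes were found among the 12557 genes of the deposited table. RNA was sequenced from mouse embryonic sinoatrial node cells, the pacemaker cells of the heart, in 2 libraries. The Isl1 mutant library came from pooled embryos of genotype Hcn4-CreERT2; Isl1f/f; Rosa-tdTomato, and the control library from pooled embryos of genotype Hcn4-CreERT2; Isl1+/+; Rosa-tdTomato, all of the ICR strain. Both groups therefore carried a recombinase under the control of Hcn4, which tamoxifen activates, together with a red reporter, and both received tamoxifen at E10.5. Tissue was taken 36 hours later, and the stage label gives embryonic day 12.5. Endothelial cells were depleted with CD31 beads before the reporter-positive cells were sorted, and how many embryos made up a pool is not stated in the sources used.

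Since each genotype has 1 library, replicate error is unknown and no test was made. Levels are in RPKM, reads scaled to exon length and library total. Comparisons of level between genes rest on the exon lengths used, which are uncertain for Gata4, Mef2a, Srf and Smyd1. Intervals are exact 95% intervals for counting error only, computed as if each read were an independent molecule. Read mates and PCR copies are not independent molecules, so the intervals are narrower than the true counting error. The libraries held 119018888 reads for the mutant and 110117186 reads for the control. Isl1, the floxed gene, stood at 1.52 RPKM in the mutant library and 7.65 RPKM in the control library, which is 5.02-fold lower (interval 4.53 to 5.56). All 7 measured pacemaker markers, a list that includes the floxed Isl1 itself, were lower in the mutant library, beside 67.2% of all genes. Their levels summed to 48.1 RPKM in the mutant library, against 104 RPKM in the control library. Of these sums, Bmp4 alone gave 24.7 RPKM in the mutant library and 53.0 RPKM in the control library. The defining channel gene Hcn4 was itself low, at 0.541 RPKM in the mutant library and 1.99 RPKM in the control library. In such sorted pools, fewer cells of a type and less RNA per cell cannot be told apart.

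GATA4, GATA5 and GATA6 are zinc finger proteins that bind GATA motifs in the enhancers of heart genes, and HAND2 is a basic helix-loop-helix protein that binds E-boxes together with E proteins. MEF2 proteins and SRF share the MADS DNA-binding domain. MEF2 proteins switch on muscle genes and are held back by class II histone deacetylases, while SRF binds CArG boxes and depends on partners such as myocardin, the product of Myocd, for muscle genes. SMYD1 is a histone methyltransferase found mainly in heart and skeletal muscle that is needed for sarcomere assembly, and in the mouse heart its gene is a direct target of MEF2C. In mice these factors control one another as well as their targets, and Hand2 is reduced in hearts that lack Smyd1.

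Promoter sequences, running from 250 bases before to 50 bases after the RefSeq start on build GRCm38.p6, were matched by symbol for 7 of the 10 genes, with 9 windows in all. Gata4, Gata6 and Myocd had no match. The windows of Smyd1 and Mef2a are shown because these genes had the lowest mutant to control ratios. That of Srf is shown because it holds letters of the CArG box, the motif of SRF, and that of Hand2 because it holds GATA and ISL1-type letters. Capitals mark matches to the motifs searched on both strands. These were the CArG box and the MEF2 site by name, the letters GATA with an A or T before them and an A or G after them, and an ISL1-type motif of the letters TAATG with a C or T before them. None of the matches in these windows share bases with another. Each sequence is written 5′ to 3′ on the gene's strand.
Smyd1 (chr6:71262232-71262531, minus strand): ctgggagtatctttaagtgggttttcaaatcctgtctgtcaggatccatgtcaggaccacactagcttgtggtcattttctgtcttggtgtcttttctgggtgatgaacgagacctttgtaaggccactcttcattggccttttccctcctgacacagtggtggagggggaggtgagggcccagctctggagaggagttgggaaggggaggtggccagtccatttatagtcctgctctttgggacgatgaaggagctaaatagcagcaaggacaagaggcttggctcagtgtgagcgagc
Mef2a (chr7:67372809-67373108, minus strand): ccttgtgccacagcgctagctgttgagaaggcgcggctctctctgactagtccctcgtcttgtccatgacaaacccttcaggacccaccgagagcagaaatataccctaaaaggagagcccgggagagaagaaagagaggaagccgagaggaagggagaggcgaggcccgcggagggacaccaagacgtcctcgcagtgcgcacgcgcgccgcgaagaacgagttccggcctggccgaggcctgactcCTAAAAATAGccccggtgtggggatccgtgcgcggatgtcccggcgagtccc
Srf (chr17:46556113-46556412, minus strand): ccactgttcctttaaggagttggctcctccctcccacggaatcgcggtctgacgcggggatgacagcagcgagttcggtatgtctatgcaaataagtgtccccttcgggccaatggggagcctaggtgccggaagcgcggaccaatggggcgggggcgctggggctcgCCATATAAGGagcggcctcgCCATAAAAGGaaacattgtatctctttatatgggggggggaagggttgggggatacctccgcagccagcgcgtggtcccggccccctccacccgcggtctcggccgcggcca
Hand2 (chr8:57320733-57321032, plus strand): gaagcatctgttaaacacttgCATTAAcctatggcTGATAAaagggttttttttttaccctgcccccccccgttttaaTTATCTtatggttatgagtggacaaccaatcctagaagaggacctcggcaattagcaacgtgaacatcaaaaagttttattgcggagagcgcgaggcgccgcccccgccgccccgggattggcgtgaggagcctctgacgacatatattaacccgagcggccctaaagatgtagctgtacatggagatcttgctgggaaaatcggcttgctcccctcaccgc

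The Srf window held 2 CArG boxes, CCATATAAGG and CCATAAAAGG, which began 82 and 62 bases before the start, and it was the 1 window of these genes with that motif. Of all 32851 promoter windows, 1.63% held a CArG box. The Mef2a window held 1 MEF2 site, CTAAAAATAG, beginning 2 bases before the start, and 3.19% of all windows held such a site. The Hand2 window held 2 GATA motifs, found in 29.8% of all windows, and 1 ISL1-type motif, found in 15.2%. No other of the 9 windows held a GATA motif, while 2 of the 3 Mef2c windows held ISL1-type letters. In the Smyd1 window none of the 4 motifs was matched. A match describes the letters and is not a measured binding site, and a window without one says nothing of the factor.

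Of the 10 regulator genes, 9 had lower values in the mutant library and 1, Mef2c, had a higher one. Among all genes listed, 67.2% were lower by any size and 32.8% higher. A gene was counted by size when it reached 5 RPKM in at least 1 library and differed at least 2-fold on the log2(RPKM + 1) scale, which understates the change of low genes. Of the 10, 6 reached that level, and by this rule 1 of these 6, Smyd1, was lower and 0 were higher. The same rule called 2.73% of 6372 genes at that level lower and 1.00% higher, that is 174 and 64 genes. With values scaled by the upper quartile these counts were 133 lower and 79 higher, and with the trend on level and length subtracted they were 98 lower and 85 higher. The other 4 genes, Gata5, Hand2, Mef2d and Srf, lay under 5 RPKM in both libraries and could not be counted by the rule.

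The median log2 ratio of the 10 genes was -0.26 on the log2(RPKM + 1) scale, beside -0.18 for all genes of the table. Low genes had lower ratios throughout the table. The median log2 ratio of RPKM without a pseudocount was -0.63 below 2 RPKM, -0.31 from 2 to 5 RPKM and -0.06 from 10 to 100 RPKM. Each regulator was therefore also set beside all genes within 2-fold of its own level, taken as the geometric mean of both libraries. By that measure 7 of the 10 lay below the median of their level and 3, Mef2c, Hand2 and Mef2d, lay above it. By definition, about as many genes lie below such a median as above it. Distances of the 7 from their medians, in log2 ratio, ran from -0.06 for Srf to -1.45 for Smyd1. The table lists a gene only where 1 library reaches about 1 RPKM, so the medians around the lowest regulators, Gata5 and Hand2, include that selection.

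**Figure D1:**
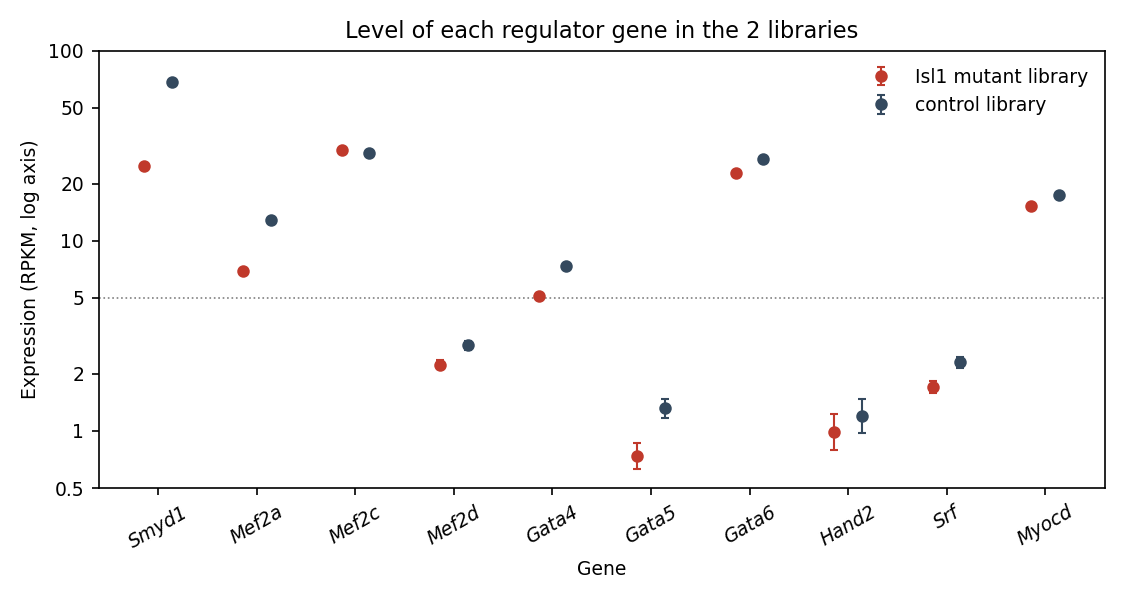
Level of each regulator gene in RPKM (log axis) in the Isl1 mutant library (left point of each pair) and the control library (right point), with exact 95% counting intervals that are mostly narrower than the points, and a dotted line at 5 RPKM. Smyd1 stood at 24.7 RPKM in the mutant library and 68.4 RPKM in the control library, while Mef2c stood at 30.1 RPKM in the mutant library and 29.1 RPKM in the control library.

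The levels spanned a wide range in both libraries. In the mutant library the order from the top was Mef2c, Smyd1, Gata6, Myocd, Mef2a, Gata4, Mef2d, Srf, Hand2 and Gata5. In the control library Smyd1 came first and Mef2c next, the places from Gata6 to Srf were the same, and Gata5 stood above Hand2. Of the 9 pairs of neighbours in each order, 1 had overlapping counting intervals, and in both libraries it was that of Gata5 and Hand2. Their change of place is therefore within these intervals, while that of Smyd1 and Mef2c is not. The level of Smyd1 was 0.820 times that of Mef2c in the mutant library and 2.35 times in the control library.

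Among the GATA genes, Gata6 had the highest level, at 22.8 RPKM in the mutant library and 26.9 RPKM in the control library. Its value was 1.18-fold lower (interval 1.14 to 1.22, resting on at least 5866 mutant and 6407 control reads). Gata4 (mm9 chromosome 14, 63817759 to 63890529), which acts with Gata6 in the heart muscle, had 5.13 RPKM in the mutant library and 7.36 RPKM in the control library. It was 1.43-fold lower (interval 1.37 to 1.499). Of 4510 genes within 2-fold of the level of Gata4, 24.6% had a lower ratio, so its value was below the middle of that range but not at its edge.

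Gata5, which is best known in the endocardium and valves, was the lowest of the 3. It stood at 0.741 RPKM in the mutant library, from at least 169 reads, and 1.31 RPKM in the control library, from at least 277 reads. This was 1.77-fold lower (interval 1.46 to 2.16), with a log2 ratio of -0.83 beside a median of -0.59 for genes of its level. All 3 GATA genes thus had lower values in the mutant library, and none was 2-fold lower. Summed per length, they reached 28.6 RPKM in the mutant library and 35.5 RPKM in the control library. Gata6 made up 79.5% of that sum in the mutant library and 75.6% in the control library, and Gata4 made up 17.9% in the mutant library and 20.7% in the control library.

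Hand2, which drives growth of the ventricles and outflow region, had little signal in these cells. It stood at 0.990 RPKM in the mutant library, from at least 89 reads, and at 1.20 RPKM in the control library, from at least 100 reads. The value was 1.21-fold lower with an interval of 0.904 to 1.63 that includes no difference. These are the smallest reads that the values allow, at an exon length of 755 bases. The joined exons of GENCODE M21 span 2351 bases, so true reads may be a multiple and the interval narrower. Whether Hand2 differed can therefore not be told from this interval. Its log2 ratio of -0.28 lay above the median of -0.53 for genes of its level, and it turned to 0.10 on the log2(RPKM + 1) scale when the level trend was subtracted.

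The MEF2 genes differed among themselves. Mef2a (mm9 chromosome 7, 74376049 to 74517744), a family member of many tissues, had 6.92 RPKM in the mutant library and 12.9 RPKM in the control library. This was 1.87-fold lower (interval 1.83 to 1.91, resting on at least 13705 mutant and 23685 control reads), short of the 2-fold rule. Of 3975 genes within 2-fold of its level, 4.75% had a lower ratio.

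Mef2c (mm9 chromosome 13, 83643033 to 83806684), the member needed for looping of the heart tube in the mouse, stood at 30.1 RPKM in the mutant library and 29.1 RPKM in the control library. Its ratio was 1.04-fold (interval 1.02 to 1.05). It was higher as deposited and under 6 of 7 alternatives, and lower (log2 ratio -0.31) when scaled by cardiomyocyte markers. Mef2d stood at 2.22 RPKM in the mutant library and 2.81 RPKM in the control library, 1.26-fold lower (interval 1.17 to 1.36). Its log2 ratio of -0.34 was, to 2 decimals, the median of -0.34 among genes of its level, so Mef2d followed the general trend of low genes. With the trend on level and length subtracted its ratio was 0.04.

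The makeup of MEF2 transcripts therefore differed between the libraries. Mef2c made up 76.7% of the summed MEF2 level in the mutant library and 64.9% in the control library. Mef2a made up 17.6% in the mutant library and 28.9% in the control library. The level of Mef2c was 4.35 times that of Mef2a in the mutant library and 2.25 times in the control library. The sum of the 3 genes was 39.3 RPKM in the mutant library and 44.8 RPKM in the control library, 1.14-fold lower.

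**Figure D2:**
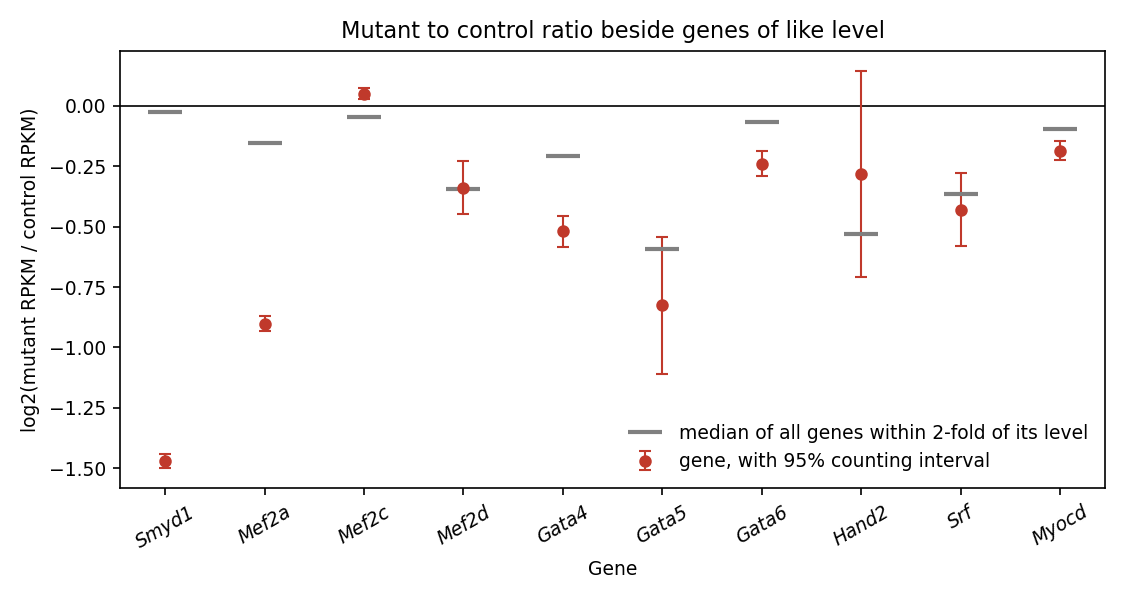
Log2 ratio of mutant over control RPKM for each regulator gene (points, with exact 95% counting intervals) beside the median of all genes within 2-fold of its level (grey bars). Smyd1 at -1.47 and Mef2a at -0.90 lie farthest below the bars, and Mef2d lies on its bar. The interval of Hand2, drawn from its smallest recovered reads, crosses 0.

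Srf (mm9 chromosome 17, 46683788 to 46693111), whose own promoter window holds the letters of CArG boxes, stood at 1.70 RPKM in the mutant library and 2.29 RPKM in the control library. It was 1.35-fold lower (interval 1.21 to 1.49), and its log2 ratio of -0.43 lay close to the median of -0.36 for its level. Myocd (mm9 chromosome 11, 64990063 to 65083491), the muscle-specific SRF coactivator, stood at 15.3 RPKM in the mutant library and 17.4 RPKM in the control library. It was 1.14-fold lower (interval 1.10 to 1.17, resting on at least 9442 mutant and 9929 control reads). Per length, the level of Myocd was 8.97 times that of Srf in the mutant library and 7.57 times in the control library. Both genes thus differed by less than 1.5-fold, the fold used as an alternative threshold.

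Smyd1 (mm9 chromosome 6, 71163934 to 71272227) was the regulator that differed most. It stood at 24.7 RPKM in the mutant library, from at least 13700 reads, and at 68.4 RPKM in the control library, from at least 35143 reads. The value was 2.77-fold lower (interval 2.72 to 2.83), or 36.1% of control. Of 1463 genes within 2-fold of its level, 6 had a lower ratio (0.410%), and the median log2 ratio of those genes was -0.02, beside -1.47 for Smyd1. It was counted as lower under all 11 alternatives in which counts were made. Its log2 ratio on the log2(RPKM + 1) scale lay between -1.79 and -1.31 over the main setting and 7 alternatives.

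Reads from overlapping genes cannot be told apart here, as the sources used do not state that counting used strand. Of the 10 regulators, 5 overlap another gene of the table on the opposite strand. Krcc1 lies wholly within the span of Smyd1 and stood at 13.1 RPKM in both libraries (13.10 in the mutant, 13.08 in the control). Lysmd4 shares 76168 bases with the span of Mef2a and was 1.55-fold lower in the mutant library, at 3.69 RPKM, against 5.74 RPKM in the control library. The others were Gm14318 with Gata5, 1700113A16Rik with Mef2d and 1010001N08Rik with Gata6, which were 1.44-fold, 1.79-fold and 1.63-fold lower. How much these shared stretches add to the values of the regulators was not tested.

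**Figure D3:**
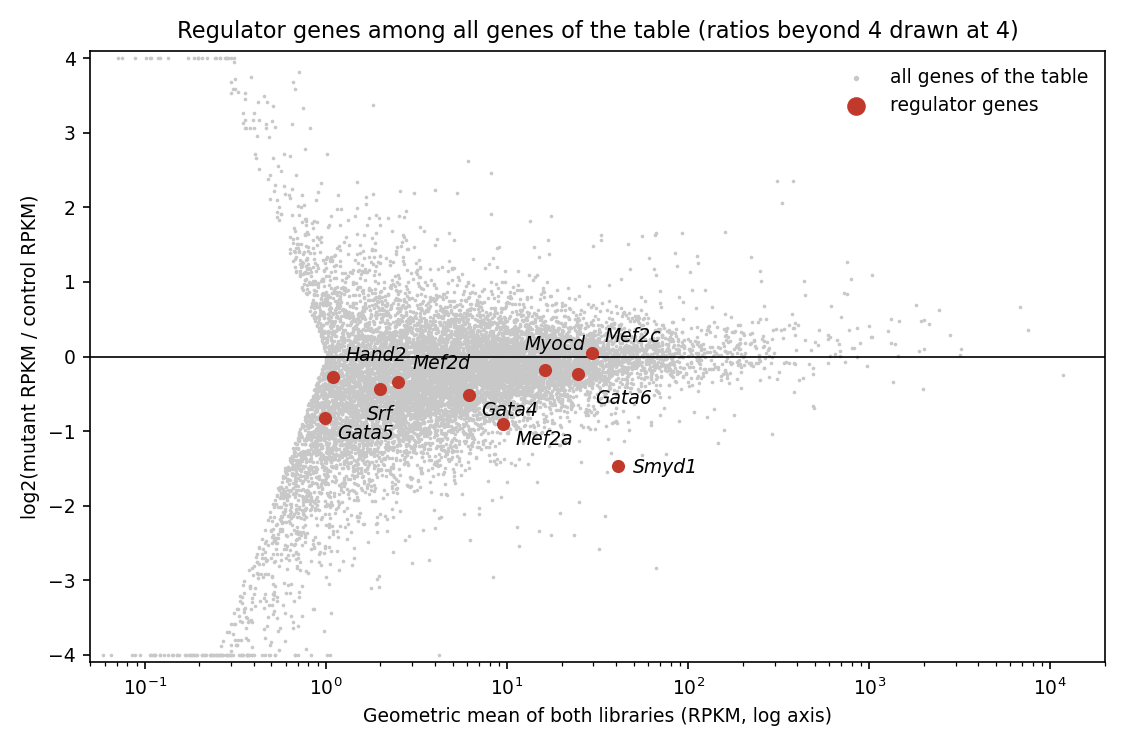
Log2 ratio of mutant over control RPKM (vertical axis, ratios beyond 4 drawn at 4) against the geometric mean RPKM of both libraries (log axis) for all 12557 genes (grey) and the 10 regulator genes (red). Smyd1 stands at the lower edge of the genes of its level, and the other regulators lie within the grey cloud, with Mef2a near its lower side.

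Levels of cell type markers moved beside these values. Their counts stand beside 67.2% of all genes lower and 32.8% higher. Heart muscle markers were higher in 7 of 9 cases, with a summed level of 17632 RPKM in the mutant library and 12507 RPKM in the control library. Of these sums, Actc1 alone gave 8539 RPKM in the mutant library and 5374 RPKM in the control library. The 2 lower markers were Ryr2, 1.55-fold lower, and Ttn, 1.20-fold lower. Fibroblast and mesenchyme markers were lower in 10 of 10 cases and summed to 222 RPKM in the mutant library and 508 RPKM in the control library. Endothelial and endocardial markers were lower in 8 of 9 measured cases, with sums of 19.97 and 34.1 RPKM in the mutant and control libraries. Among them, the mesenchymal receptor gene Pdgfra stood at 1.45 RPKM in the mutant library and 9.53 RPKM in the control library, and the endothelial receptor gene Kdr at 3.21 RPKM in the mutant library and 7.40 RPKM in the control library. Epicardial markers summed to 109 RPKM in the mutant library and 94.2 RPKM in the control library, with 3 of 8 higher and 5 lower. Their median log2 ratio was -0.18. The 1 epicardial marker past the size rule, Krt19, stood at 28.8 RPKM in the mutant library and 9.77 RPKM in the control library and weighs on the sums.

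Blood markers were also lower in the mutant library, where 67.2% of all genes were lower. Erythroid markers were lower in 7 of 7 measured cases, with sums of 59.5 RPKM in the mutant library and 358 RPKM in the control library. Macrophage markers were lower in 7 of 7 measured cases and summed to 7.48 RPKM in the mutant library and 42.2 RPKM in the control library. Smooth muscle markers were higher in 6 of 6 cases, with sums of 1555 RPKM in the mutant library and 961 RPKM in the control library. Acta2 alone gave 1008 RPKM of the mutant sum and 566 RPKM of the control sum. The 3 measured neural markers were all lower, with sums of 1.79 RPKM in the mutant library and 5.89 RPKM in the control library. Cdh5, Epb4.2, Tyrobp, Sox10 and Stmn2 were among the markers not found in the table, which lists a gene only where 1 library reaches about 1 RPKM. The part of these cells in the values of the regulators was not tested. When all values were scaled by the median ratio of the 9 heart muscle markers, a choice made after seeing the data, Smyd1 and Mef2a were both counted as lower and the remaining 8 regulators were not.

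Partners of the regulators were compared in 4 lists, and their known targets in 3. GATA and HAND partners were lower in 9 of 11 measured genes, beside 67.2% of all genes, and 4 of the 11 reached 5 RPKM. Their median log2 ratio was -0.46, or -0.70 with a pseudocount of 0.1, -0.18 with a pseudocount of 5, -0.15 with the level trend subtracted and -0.13 with the level and length trend subtracted. By the size rule 1 was lower and 0 higher, beside 2.73% and 1.00% of all genes at 5 RPKM or more. The lower gene was Tcf12, an E protein that pairs with HAND factors. It stood at 3.41 RPKM in the mutant library and 8.74 RPKM in the control library (2.56-fold lower, interval 2.37 to 2.77). Tcf12 was not counted with a pseudocount of 5, at a minimum level of 10 RPKM or with either trend subtracted. Tcf3, another E protein, was 1.64-fold lower, and Crebbp, a histone acetyltransferase that serves as coactivator, 1.70-fold lower. Lmcd1, a LIM protein that restrains GATA6, was 1.63-fold higher, at 20.8 RPKM in the mutant library and 12.8 RPKM in the control library. Zfpm1, Gata1, Gata2 and Twist1 were not found in the table.

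MEF2 partners and upstream kinases were lower in 14 of 16 measured genes, beside 67.2% of all genes, and 9 of the 16 reached 5 RPKM. By the size rule 0 were lower and 0 higher, beside 2.73% and 1.00% of all genes at 5 RPKM or more. The median log2 ratio of the list, -0.18, was that of all genes of the table, and it was 0.03 with the trend on level and length subtracted. Hdac5, a class II histone deacetylase that represses MEF2, was 1.95-fold lower, at 7.29 RPKM in the mutant library and 14.2 RPKM in the control library. Mapk7, the kinase ERK5 that activates MEF2 proteins, was 1.45-fold lower, and Cabin1, a corepressor of MEF2, 1.38-fold lower. Ppp3ca, a catalytic subunit of calcineurin, was 1.26-fold higher. Mapk7 overlaps the microfibril gene Mfap4, which stood at 16.6 RPKM in the mutant library and 73.2 RPKM in the control library. Mef2b, Mamstr, Vgll2 and Vgll3 were not found in the table.

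SRF cofactors and regulators were higher in 8 and lower in 6 of 14 measured genes, beside 32.8% and 67.2% of all genes. Their median was 0.04 and turned to -0.32 when scaled by the heart muscle markers. Of the 14, 8 reached 5 RPKM. By the size rule 1 was lower and 0 higher, beside 2.73% and 1.00% of all genes at 5 RPKM or more. The lower gene was Csrp1, a LIM protein that bridges SRF and GATA factors in smooth muscle. It stood at 20.8 RPKM in the mutant library and 61.0 RPKM in the control library (2.93-fold lower, interval 2.84 to 3.03). Its paralog Csrp2 was 1.24-fold lower, while Csrp3, the muscle LIM protein gene, was 1.30-fold higher, at 438 RPKM in the mutant library and 338 RPKM in the control library. Tmod1, the gene of an actin filament capping protein, was 1.26-fold higher. Elk3 was not found in the table.

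The SMYD relatives and chaperone partners of Smyd1 gave no gene past the size rule, and 12 of the 13 reached 5 RPKM. Of all genes at 5 RPKM or more, the rule called 2.73% lower and 1.00% higher. Of 13 genes, 8 were higher and 5 lower, beside 32.8% and 67.2% of all genes, with a median of 0.08, or -0.29 with that scaling. Smyd2, Smyd3, Smyd4 and Smyd5, which encode the other methyltransferases of the family, had log2 ratios between -0.02 and 0.20 on the log2(RPKM + 1) scale. Unc45b, the myosin chaperone gene of striated muscle, was 1.15-fold lower, at 183 RPKM in the mutant library and 210.3 RPKM in the control library, and Unc45a, its general counterpart, was 1.93-fold lower. Stip1, a cochaperone gene of HSP90, was 1.22-fold higher, and Hdac2, a class I histone deacetylase gene, was 1.37-fold lower. Naca, whose muscle isoform binds SMYD1, stood at 28.01 RPKM in the mutant library and 24.3 RPKM in the control library.

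**Figure D4:**
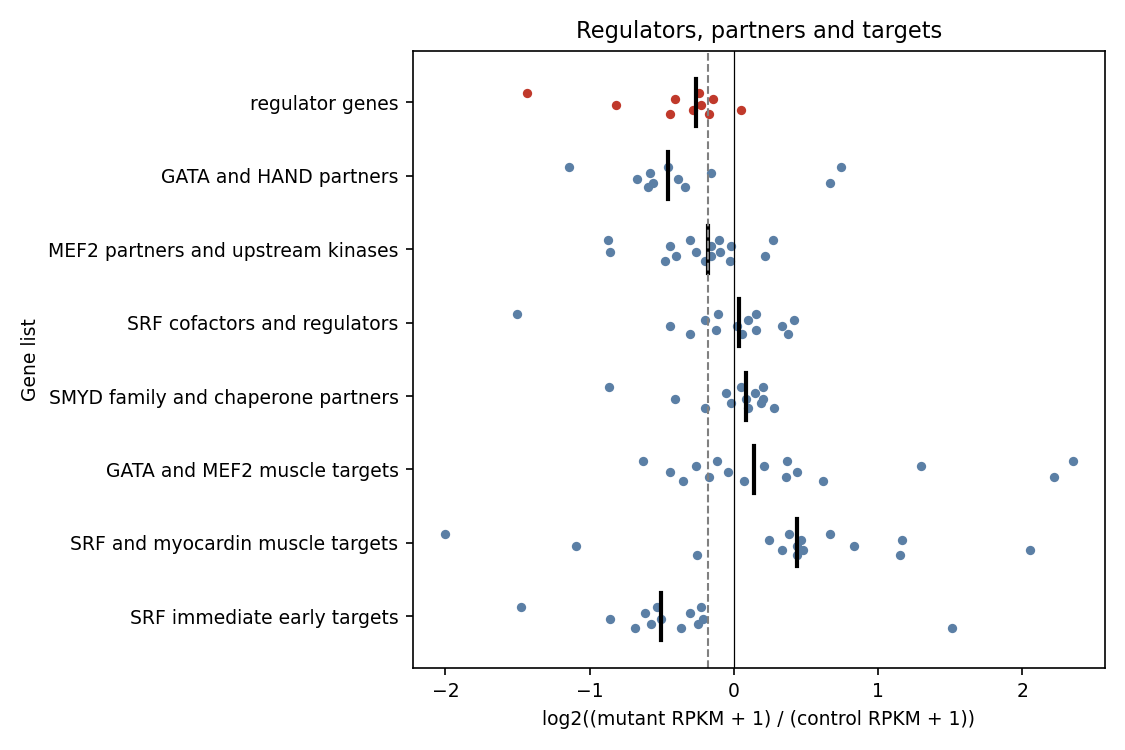
Log2((mutant RPKM + 1)/(control RPKM + 1)) of each measured gene (points) in the regulator list (red) and in 7 lists of partners and targets (blue), with the median of each list (black bars) and of all genes (dashed line, -0.18). The median was 0.44 for SRF and myocardin muscle targets and -0.51 for SRF immediate early targets, the highest and lowest of the lists drawn.

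Targets of the regulators went both ways. GATA and MEF2 muscle targets were higher in 9 of 16 measured genes, beside 32.8% of all genes, with a median of 0.14. Scaling by the heart muscle markers, 3 of which, Myh6, Tnnc1 and Myl7, are also in this list, gave -0.23. That scaling moved the median of all genes to -0.46, against -0.18 as deposited. By the size rule 3 were higher and 0 lower, beside 1.00% and 2.73% of all genes at 5 RPKM or more. Nppa, the atrial natriuretic peptide gene and a target of GATA4, stood at 861 RPKM in the mutant library and 168 RPKM in the control library (5.13-fold higher, interval 5.05 to 5.21). Nppb, the gene of the related B-type peptide, was 6.16-fold higher, at 15.02 RPKM in the mutant library and 2.44 RPKM in the control library. Ckm, the muscle creatine kinase gene and a classic MEF2 target, was 2.59-fold higher, at 27.3 RPKM in the mutant library and 10.53 RPKM in the control library, and was not counted with that scaling. Myl7, which encodes the myosin light chain of the atria, was 1.54-fold higher. Xirp2 was not found in the table.

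SRF and myocardin targets of muscle were higher in 12 of 15 genes, beside 32.8% of all genes. By the size rule 2 were higher and 2 lower, beside 1.00% and 2.73% of all genes at 5 RPKM or more. Acta1, the skeletal alpha-actin gene, was 4.17-fold higher, at 672 RPKM in the mutant library and 161 RPKM in the control library, and Tagln, the transgelin gene, 2.26-fold higher, though not counted with the heart muscle scaling. Mylk, whose kinase phosphorylates myosin light chains, was 8.52-fold lower (interval 6.39 to 11.6), at 0.670 RPKM in the mutant library and 5.71 RPKM in the control library. Flna, the filamin A gene, was 2.22-fold lower (interval 2.18 to 2.26). Flna was not counted with a pseudocount of 5 or with the level and length trend subtracted, and Mylk not with a pseudocount of 5 or at a minimum level of 10 RPKM. The list includes all 6 smooth muscle markers and the heart muscle marker Actc1. Its median, 0.44, or 0.09 with the heart muscle scaling, stood beside values of 1.35-fold lower for Srf and 1.14-fold lower for Myocd.

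SRF targets of the immediate early class, which tissue dissociation also induces, were lower in 12 of 13 genes, beside 67.2% of all genes. By the size rule 1 of them was lower and 1 higher, beside 2.73% and 1.00% of all genes at 5 RPKM or more. Their median of -0.51 was -0.22 with a pseudocount of 5, -0.25 with the level trend subtracted and -0.28 with the level and length trend subtracted. Fosb, an AP-1 subunit gene, was 4.21-fold lower, at 1.24 RPKM in the mutant library and 5.22 RPKM in the control library, and was not counted with a pseudocount of 5 or at a minimum level of 10 RPKM. Fos was 1.61-fold lower, at 390 RPKM in the mutant library and 628 RPKM in the control library, and the nuclear receptor gene Nr4a1, also a MEF2 target, 1.83-fold lower. Ctgf, a matricellular growth factor gene, was the 1 higher gene, at 57.0 RPKM in the mutant library and 19.3 RPKM in the control library (2.95-fold higher, interval 2.86 to 3.05). The muscle and immediate early targets of SRF thus lay on opposite sides of 0 by their medians, and this held under the 7 alternatives run for these lists.

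Of these 28 partner and target genes, 9 share part of their span with a second gene. Nppa overlaps Gm13054, at 703 RPKM in the mutant library and 138 RPKM in the control library, and Ctgf overlaps Gm15270, at 50.1 RPKM in the mutant library and 17.97 RPKM in the control library. The others are Acta1, Ckm, Mapk7, Tagln, Tmod1, Unc45a and Unc45b. Reads of the shared stretches cannot be separated.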

How the data were processed

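RNA was sequenced in 1 Isl1 mutant library and 1 control library. Per the labels' protocols, oligo(dT) beads took messenger RNA from 10 ng of RNA, and SMARTer libraries were read in 90 bp pairs. Per the submitters' processing notes, the build was mm9 and the tools were Bowtie2, TopHat2, FastQC and Trim Galore, and no source used here gives the counting tool. The deposited expression values were taken as RPKM, since among 284 small RNA genes of 1 exon, value times length came within 0.01 of whole reads in 276 mutant and 284 control cases. From these steps the mutant library held 119018888 reads and the control library 110117186. The deposited log2 fold changes by the authors equal the log2 ratio of the RPKM values, and a further deposited column, a signed score of the fold, was left out.

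Whole reads were recovered for 12463 genes (99.3%) as the smallest exon length at which both values are whole within 0.0002. True numbers can be multiples, which would narrow the intervals. The recovered length exceeded the joined exons of GENCODE M21 for Gata4 (5636 against 3904 bases), Mef2a (16633 against 14681), Srf (3252 against 2893) and Smyd1 (4664 against 4546). For the other regulators it did not, as for Hand2 (755 against 2351 bases), Gata5 (1917 against 3277) and Gata6 (2165 against 6508). The cause was not tested, so recovered reads, interval widths and levels compared between genes may be off. Intervals of folds (Clopper-Pearson, conditional on the sum) and of levels (Poisson) are exact, both at 95%. A pseudocount of 1 RPKM was used for the size rule. For a symbol with several entries, the entry with the highest mean was kept. Named genes are the regulators, Isl1, genes that overlap a regulator, the 4 genes of each partner or target list with the largest ratio at 5 RPKM or more, and list genes past the size rule. Naca, Pdgfra, Kdr, Hcn4, Bmp4, Krt19, Actc1, Ryr2, Ttn, Acta2 and Smyd2 to Smyd5 were named in addition, with their values known. The regulators and lists were chosen with earlier results of these data known. Alternatives were pseudocounts, scalings, levels, thresholds and trend subtraction. The scripts were checked on simulated data. Python 3.11.15, numpy 2.4.6, pandas 2.3.3 and scipy 1.17.1 were used.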

Additional observations from a re-analysis of the deposited data

How the results depend on the processing

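No paired analysis was possible because each genotype has 1 library, and for the same reason no library could be left out. Smyd1 remained lower in every count, and 0 regulators were higher in any. With a 1.5-fold threshold, or with scaling by the heart muscle markers, which was added after seeing the data and divides mutant RPKM by a factor of 0.37 on the log2 scale, 2 regulators were lower, Smyd1 and Mef2a. The median of the regulators, -0.26, was -0.37 with a pseudocount of 0.1, -0.14 with a pseudocount of 5, -0.081 with the level and length trend subtracted, -0.13 with the level trend subtracted, -0.54 with the heart muscle scaling and -0.41 as a mean. Of 10 regulators, 7 kept their sign under the 7 alternatives run for each, though some of these ratios became small. With the level and length trend subtracted, Gata4 went from -0.45 to -0.10, Srf from -0.28 to -0.06 and Myocd from -0.17 to -0.02. With the level trend subtracted, Srf was at -0.02. Hand2 and Mef2d changed sign when either trend was subtracted and Mef2c under the heart muscle scaling. Smyd1, the 1 regulator counted, did not change sign.

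Of the partner and target genes, 5 were lower in the main setting, against 1 with a pseudocount of 5, 3 with the level and length trend subtracted, 2 at a minimum level of 10 RPKM, 12 at 1.5-fold and 9 with the heart muscle scaling. The 6 higher genes became 10 at 1.5-fold and 4 with the heart muscle scaling, which lost Ckm and Tagln. Over all genes, 174 lower and 64 higher genes became 271 and 79 with a pseudocount of 0.1, 36 and 36 with a pseudocount of 5, 503 and 139 with no minimum level or one of 1 RPKM, 70 and 50 at 10 RPKM, and 756 and 239 at 1.5-fold. They became 102 and 87 with the level trend subtracted, and 516 and 29 with the heart muscle scaling. The cause of these shifts was not tested. Depth limits Hand2 and Gata5 most, at a minimum of 89 and 169 recovered reads in the mutant library. True numbers can be multiples of these.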
